A study of Homo sapiens with 6 samples.

Results

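Claudins, occludin and their relatives, the junctional adhesion molecules and the cytoplasmic plaque proteins build tight junctions, and the desmosomal cadherins with their plaque build desmosomes. Every gene of these families that the array annotation names alone was followed here in PC3 cells, an established human prostate cancer cell line. The genes were taken by name: symbols CLDN, TJP, DSC, DSG and PKP followed by a number, and OCLN, MARVELD2, MARVELD3, F11R, JAM2, JAM3, CGN, DSP and JUP. Of 47 protein-coding genes with such names, 45 had a row of their own among the 22465 genes tested, and the rest were not analysed here. Total RNA was measured on Affymetrix arrays in 3 PC3 cultures transfected with a synthetic precursor of miR-130a and in 3 PC3 cultures transfected with a negative control precursor, from 3 experiments described as independent. Both arms carried a transfected precursor and shared medium and serum, no arm was left untransfected, and dose and harvest time are not given in the sources used here. All values are log2 expression values. Differences are miR-130a minus negative control, tested with limma, and adjusted p-values are Benjamini-Hochberg values over the 22465 genes with a threshold of 0.05.

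Tight junctions close the space between epithelial cells. Claudins form the strands and set whether a strand seals or conducts ions, occludin and the other MARVEL proteins join them, and ZO proteins (the TJP genes) tie the strands to actin. Desmosomes are spot welds in which desmogleins and desmocollins bind across the gap, and plakoglobin, plakophilins and desmoplakin hand the load to keratin filaments. In prostate glands both structures lie between the secretory luminal cells. A microRNA acts by repressing messenger RNAs that carry matches to its seed.

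Markers of the cell line and of other cell types were read against the median row of the table (4.995). All 6 epithelial markers lay above it, at 6.49 for CDH1 to 10.39 for KRT19. So did 7 of 8 stromal, endothelial and leukocyte markers, at 5.15 for CD14 to 6.89 for COL1A1, and PTPRC, a leukocyte marker, lay at 2.72. The median row therefore does not separate these cell types, and the identity of the cells rests on the labels. The row of CTNNA1, the alpha-catenin that PC3 cells are known to lack, lay at 4.24, below the median row. KLK3, the prostate-specific antigen, averaged 5.89, above the median row, as did 3 of the 4 measured luminal markers, KLK3 among them. Signal over background was not used, so neither the CTNNA1 level nor the KLK3 level shows whether the gene was expressed. Of the 8 stromal, endothelial and leukocyte markers, none passed the test (limma, 0 at an unadjusted p below 0.05). Of the 6 epithelial markers, 1 passed, KRT18, which rose. At an unadjusted p below 0.05 (limma), 4 of these 6 were higher and 1 was lower. Of all 22465 genes, 1833 were higher and 1874 lower at that level. Negative control 3 stood apart: its median over all rows was 5.08, against 4.96 to 5.00 on the other arrays, and values without it are given beside each member described on every array whose difference it moved by over 1.5 times, and beside some others.

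With miR-130a, 2 of the 45 junction genes rose, CLDN1 and TJP1, which is 4.44% of them against 2.48% of all genes called higher. None of the 45 fell (limma), against 1.74% of all genes called lower. At an unadjusted p below 0.05 (limma), 10 of the 45 were higher and 0 lower. Of all 22465 genes, 1833 were higher and 1874 lower at that level. The median change of the 45 was 0.051, against -0.014 over all genes. In 14 of the 45, or 31.1%, every miR-130a array lay above every control array, a pattern shown by 11.7% of all genes. The reverse pattern held for 1 of the 45, CLDN7, and for 11.9% of all genes. Differences were small apart from CLDN1, and 29 of the 45 were positive, or 64.4% against 43.2% of all genes. RNA from a whole culture cannot tell a change in every cell from a change in a share of the cells.

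**Figure D1:**
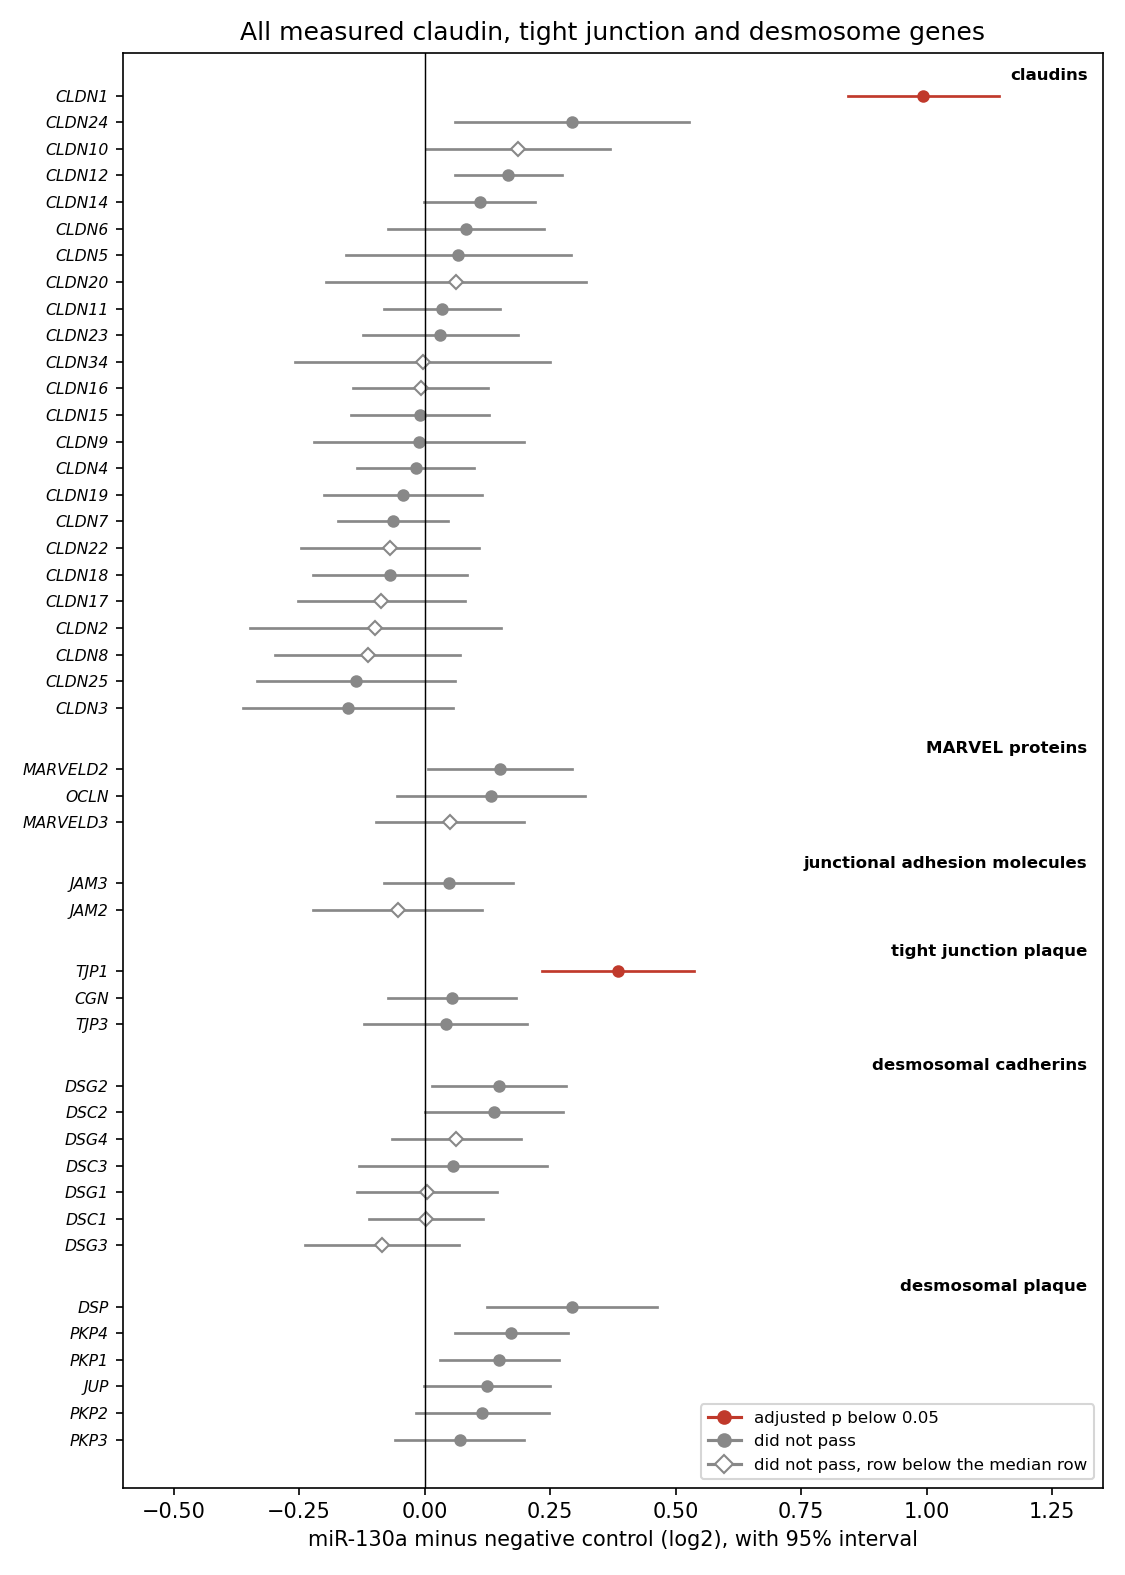
Difference between miR-130a and negative control cultures (log2, x axis) with its 95% interval for each of the 45 measured genes, grouped by role. CLDN1 at 0.99 and TJP1 at 0.39 are the genes past the threshold, all 6 desmosomal plaque genes lie right of 0, and open diamonds mark rows below the median row.

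CLDN1 encodes a barrier-forming claudin best known from skin, liver and glandular epithelia. It stood at 8.61, 8.50 and 8.69 on miR-130a arrays 1, 2 and 3, against 7.64, 7.64 and 7.55 on negative control arrays 1, 2 and 3. The arms were separated by far more than either spread, and no array of one arm came near the other arm. The rise was 0.99 (SE 0.064, 95% interval 0.84 to 1.14), or 1.99-fold, with an adjusted p of 0.000605 (limma). It passed in all 15 alternative settings run, with differences of 0.95 to 1.04 and adjusted p-values of 0.0001 to 0.00688. In NCBI's gene table CLDN1 overlaps its neighbour CLDN16, a kidney claudin needed for magnesium reabsorption, whose own row averaged 4.58 in miR-130a cultures and 4.59 in control cultures.

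The claudins next to CLDN1 in importance for glandular epithelium did not follow it. CLDN3, a sealing claudin and receptor of a clostridial toxin, stood at 9.10, 9.21 and 9.17 with miR-130a, against 9.34, 9.12 and 9.47 in controls. The arms overlapped, because negative control 2 lay within the miR-130a range, and the difference of -0.15 (SE 0.090, 95% interval -0.36 to 0.06) did not pass (adjusted p = 0.50, limma). The difference was -0.073 without negative control 3 and -0.25 without negative control 2. CLDN4, its neighbour on chromosome 7 and a receptor of the same toxin, differed by -0.018, with an interval of -0.14 to 0.10. CLDN7, which binds the adhesion protein EPCAM, averaged 7.64 with miR-130a and 7.70 in controls, a difference of -0.063 (adjusted p = 0.635, limma) in spite of arms that did not overlap. For CLDN3, CLDN4 and CLDN7 a change of the size seen for CLDN1 lies outside the 95% interval.

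CLDN12 is a claudin that lacks the tail motif by which most claudins bind ZO proteins. It stood at 5.59, 5.62 and 5.62 with miR-130a, against 5.42, 5.44 and 5.46 in controls. The arms did not overlap and each was tight, but the difference was only 0.17 (SE 0.046, adjusted p = 0.101, limma). Without negative control 3 its adjusted p was 0.0356, with a difference of 0.18. CLDN24, an intronless claudin, stood at 5.28, 5.29 and 5.52 with miR-130a and at 5.20, 4.88 and 5.13 in controls. Its arms did not overlap either, but both were wide, and its difference of 0.29 (SE 0.100) did not pass (adjusted p = 0.182, limma). CLDN24 lies beside its close relative CLDN22, whose row differed by -0.069, and how far the probes of either gene read the other was not tested.

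The 18 claudins other than CLDN1, CLDN3, CLDN4, CLDN7, CLDN12 and CLDN24 differed by -0.14 (CLDN25) to 0.19 (CLDN10), and none passed. Among those that form channels, CLDN2, a pore for cations and water, differed by -0.098, or by 0.020 without negative control 3. CLDN15, a cation pore, differed by -0.009, CLDN16 by -0.008 and CLDN17 by -0.087. CLDN10, which forms ion pores, differed by 0.19 (adjusted p = 0.292, limma). It lay at 4.53 with miR-130a and 4.34 in controls, below the median row, as did CLDN2, CLDN16 and CLDN17. CLDN14, a claudin of the inner ear and kidney, was 0.11 higher with arms that did not overlap. CLDN5, known from the blood-brain barrier, differed by 0.067 with a wide interval of -0.16 to 0.29, and by 0.18 without negative control 3 and -0.020 without negative control 1. Of the 24 claudins, 16 lay above the median row. Differences were positive in 43.2% of all genes and in 41.7% of the 24 claudins, 10 positive and 14 negative. Their median change was -0.009, and the sign of this median turned with the scaling of the arrays: centring each array on its median gave 0.013 and a second quantile normalization 0.005. The median over all genes turned with it, at -0.014 as deposited, 0.0074 after centring and 0.0022 after quantile normalization. The claudin median was 0.049 without negative control 3 and 0.014 without miR-130a 2.

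**Figure D2:**
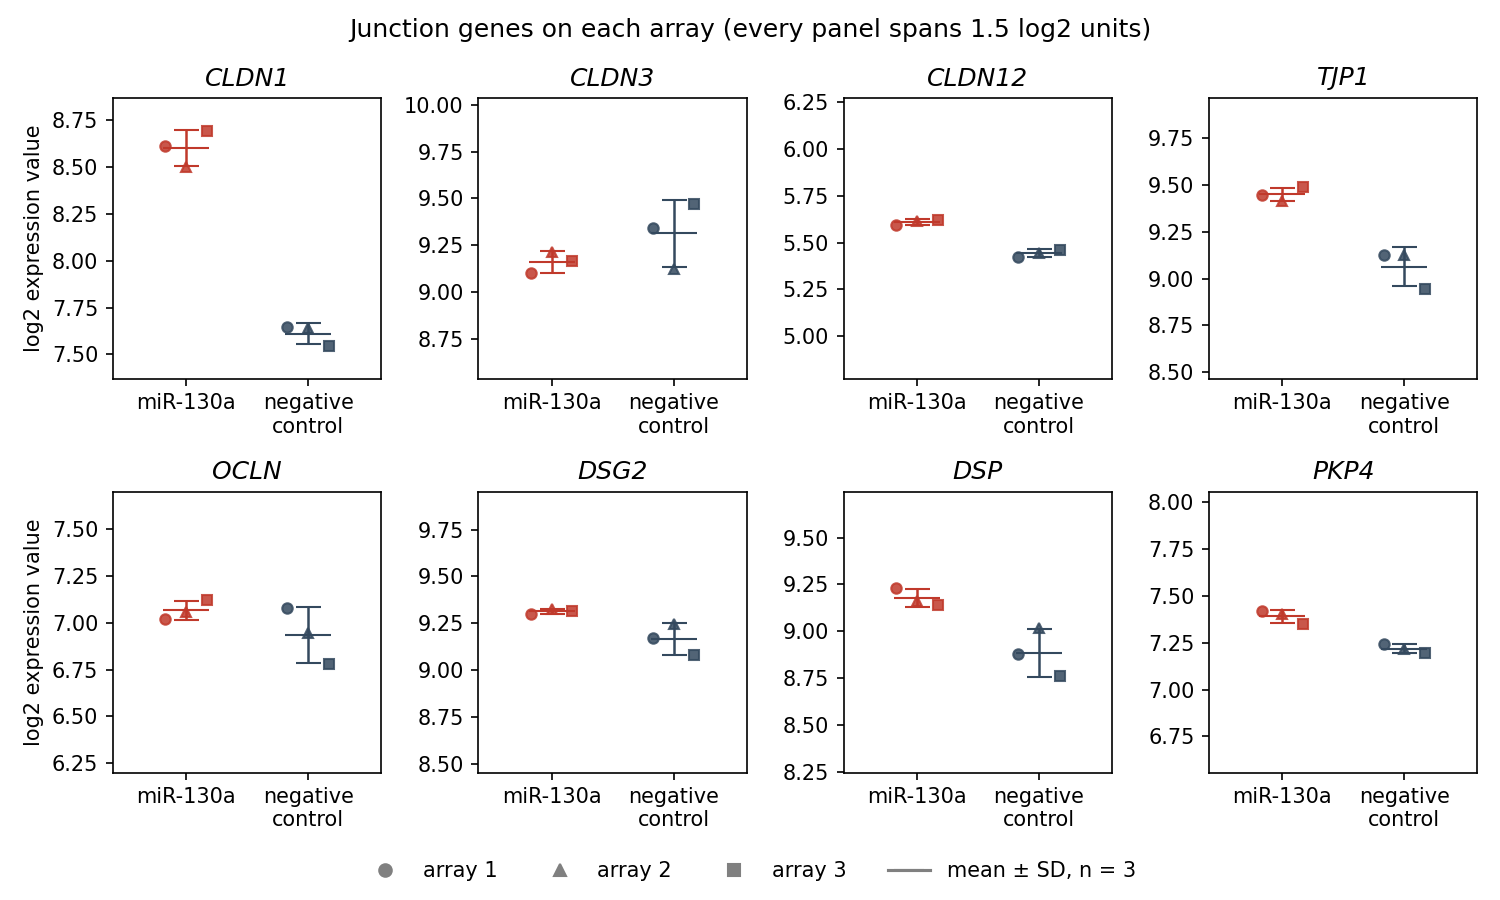
Log2 expression values (y axis, every panel spanning the same range) on the 3 miR-130a arrays (left, red) and the 3 negative control arrays (right, dark) for 8 junction genes; symbols mark the array number and bars the mean ± SD, n = 3. The arms of CLDN1 lie about 1 log2 unit apart, those of TJP1, DSP, CLDN12, PKP4 and DSG2 are separate but close, and those of CLDN3 and OCLN overlap.

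TJP1 encodes ZO-1, the scaffold that binds the claudin tails and links them to actin. It stood at 9.45, 9.42 and 9.49 with miR-130a, against 9.13, 9.13 and 8.94 in controls. The arms did not overlap, and negative control 3 was the lowest array. The rise was 0.39 (SE 0.065, 95% interval 0.23 to 0.54), or 1.31-fold (adjusted p = 0.0191, limma). Without negative control 3 it was 0.32 with an adjusted p of 0.00901. TJP1 missed the threshold without miR-130a 1 (adjusted p = 0.1), miR-130a 2 (0.0741), miR-130a 3 (0.113) or negative control 1 (0.0532), with a difference of 0.37 to 0.42 in these 4 fits. It also missed after each array was centred on its median (adjusted p = 0.0596) and when all rows were tested (0.0931).

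The other plaque genes of the tight junction stayed close to their controls. CGN, the gene of cingulin, which links ZO proteins to myosin and microtubules, stood at 5.72 on all 3 miR-130a arrays, against 5.59, 5.66 and 5.74 in controls. TJP3, which encodes another ZO protein, stood at 6.58, 6.54 and 6.60 with miR-130a, against 6.48, 6.44 and 6.67 in controls. Both overlapped their controls, with differences of 0.055 (95% interval -0.07 to 0.18) and 0.042 (95% interval -0.12 to 0.20). Without negative control 3 they were 0.095 and 0.11. The upper bounds of both intervals lie below the fitted rise of TJP1.

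OCLN, the gene of occludin, and MARVELD2, which encodes tricellulin, the MARVEL protein of corners where 3 cells meet, are neighbours on chromosome 5. MARVELD2 stood at 7.21, 7.17 and 7.20 with miR-130a and at 7.13, 7.06 and 6.94 in controls. OCLN stood at 7.02, 7.06 and 7.12 with miR-130a and at 7.08, 6.95 and 6.78 in controls. The arms were separate for MARVELD2 and overlapped for OCLN, and in both genes negative control 3 was lowest. The differences were 0.15 (adjusted p = 0.271, limma) for MARVELD2 and 0.13 (adjusted p = 0.521) for OCLN. Without negative control 3 they were 0.097 and 0.053. MARVELD3, the third of the family, lay below the median row at 4.87, 4.77 and 4.77 with miR-130a and at 4.70, 4.70 and 4.86 in controls. Its arms overlapped, and its difference of 0.051 was 0.10 without negative control 3.

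Of the junctional adhesion molecules, immunoglobulin proteins at the junction that also bind leukocytes, JAM3 stood at 5.90, 5.98 and 5.96 with miR-130a and at 5.93, 5.83 and 5.95 in controls. JAM2 lay below the median row at 3.70, 3.59 and 3.60 with miR-130a and at 3.59, 3.64 and 3.82 in controls. Both overlapped, with differences of 0.048 for JAM3 (adjusted p = 0.811, limma) and -0.053 for JAM2 (adjusted p = 0.856), and that of JAM2 was 0.016 without negative control 3.

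All 6 genes of the desmosomal plaque were higher on average with miR-130a, as were 44.1% of genes above the median row. None of the 6 passed. In 5 of the 6 every miR-130a array lay above every control array, as in 11.7% of all genes and 14.7% of genes above the median row. The median difference of the 6 was 0.14, which stayed between 0.11 and 0.16 when any 1 array was left out. DSP encodes desmoplakin, the protein that anchors keratin filaments. It stood at 9.23, 9.16 and 9.14 with miR-130a, against 8.88, 9.02 and 8.76 in controls. Its difference was the largest of the desmosome genes at 0.29 (SE 0.073, 95% interval 0.12 to 0.46), or 1.23-fold, and missed the threshold (adjusted p = 0.0729, limma). DSP passed in 5 of 15 alternative settings, among them the test of brighter rows alone (adjusted p = 0.0402) and the fit without negative control 2 (adjusted p = 0.0416, difference 0.36). Without negative control 3 its difference was 0.23.

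Plakophilins bind the desmosomal cadherins and desmoplakin, and PKP4, a relative of theirs, is found at adherens junctions as well. PKP4 stood at 7.42, 7.40 and 7.35 with miR-130a and at 7.24, 7.22 and 7.20 in controls. PKP1 stood at 9.59, 9.64 and 9.55 with miR-130a and at 9.46, 9.40 and 9.47 in controls. Neither overlapped its controls, and the differences of 0.17 (SE 0.048, adjusted p = 0.105, limma) and 0.15 (SE 0.051, adjusted p = 0.184) did not pass. JUP, the gene of plakoglobin, was 0.12 higher and PKP2 0.12 higher, both without overlap, and PKP3 was 0.069 higher with arms that overlapped.

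The 7 desmosomal cadherin genes lie in 1 unbroken run on chromosome 18, from DSC3 through DSC2, DSC1, DSG1, DSG4 and DSG3 to DSG2. Only the rows at the ends, DSC3, DSC2 and DSG2, lay above the median row. The 4 rows between them, of genes known from stratified epithelium or hair, averaged 2.54 to 3.45. DSG2, the desmoglein of simple epithelium, stood at 9.30, 9.33 and 9.32 with miR-130a and at 9.17, 9.25 and 9.08 in controls. DSC2, the matching desmocollin, stood at 9.10, 9.10 and 9.13 with miR-130a and at 9.00, 9.04 and 8.87 in controls. The arms of both were separate by narrow gaps, with differences of 0.15 (adjusted p = 0.243, limma) and 0.14 (adjusted p = 0.303). Negative control 3 was the lowest array of both, and without it the differences were 0.10 for DSG2 and 0.087 for DSC2.

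DSC3, a desmocollin of basal cells, behaved less evenly. It stood at 9.16, 9.05 and 9.08 with miR-130a and at 9.11, 9.15 and 8.87 in controls. The arms overlapped, and the difference of 0.056 became -0.029 without negative control 3. DSG3, a desmoglein of basal epidermis, stood at 3.38, 3.47 and 3.35 with miR-130a and at 3.38, 3.50 and 3.58 in controls, among the dim rows, with a difference of -0.085 (adjusted p = 0.658, limma), or -0.039 without negative control 3. DSG4, DSG1 and DSC1 differed by 0.063, 0.005 and 0.003.

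Negative control 3 moved differently with different families. Among the 16 claudins above the median row it was the highest control in 13, whereas among the 15 other members above the median row it was the lowest control in 9. Over all genes it was the highest control in 51% and the lowest in 31.6%. All 15 of those other members had positive differences, with a median of 0.13, against 44.1% positive among genes above the median row. Without negative control 2, 14 of the 15 were positive, TJP3 being the exception, against 36.5% of all genes. Without negative control 3 the median of the 15 was 0.10 and 14 were positive, DSC3 being the exception. Over all genes, dim rows included, 43.2% were positive with all arrays and 56.5% in the fit without negative control 3. In that fit 3 of the 45 members rose (CLDN1, TJP1 and CLDN12) and none fell, against 4.88% of all genes called higher and 5.14% called lower. Why this array differs was not tested.

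**Figure D3:**
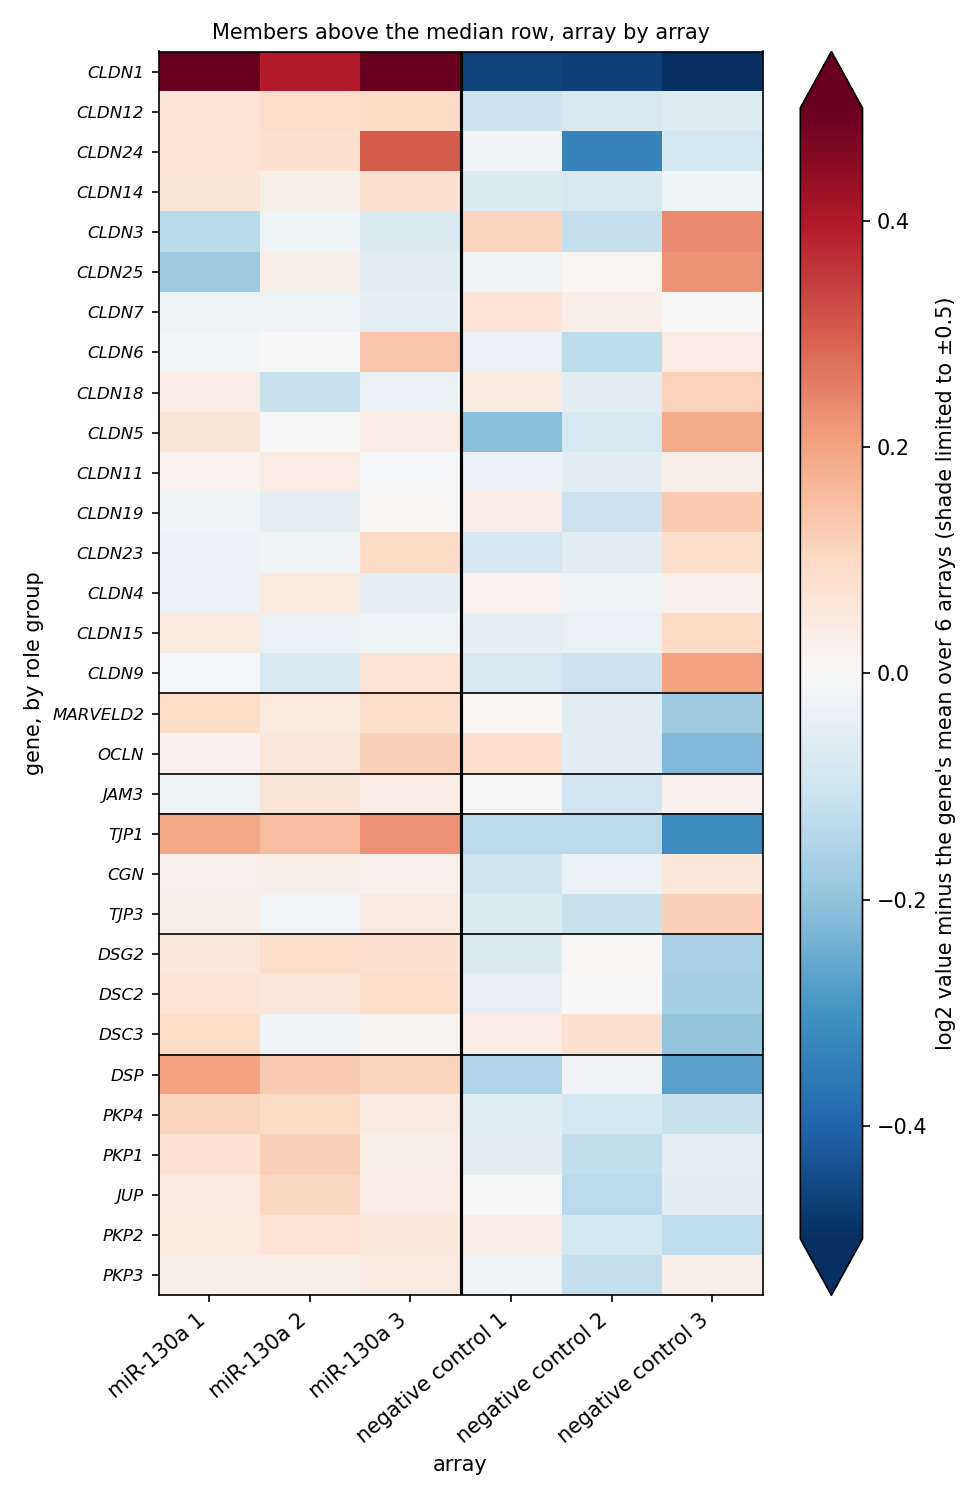
Log2 value minus the gene's mean over the 6 arrays (colour, shade limited to 0.5 in either direction) for the 31 members above the median row, with miR-130a arrays left of the black line and negative control arrays right of it. CLDN1 and TJP1 change colour between the arms, and most desmosomal plaque genes do so faintly. PKP2 is red on negative control 1 and PKP3 on negative control 3. Negative control 3 is red for most claudins and blue for TJP1, OCLN, DSP and the desmosomal cadherins.

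Related junction genes were read from lists of their own. At an unadjusted p below 0.05 (limma), 1833 of all 22465 genes were higher and 1874 lower. None of 16 adherens junction and nectin genes passed (limma; 3 higher and 0 lower at an unadjusted p below 0.05). CDH1, the gene of E-cadherin, stood at 6.64, 6.64 and 6.63 with miR-130a and at 6.49, 6.29 and 6.26 in controls, 0.29 higher with separate arms (adjusted p = 0.0614). CDH2, which encodes N-cadherin, was 0.25 higher as well (adjusted p = 0.0862). CDH3, the gene of P-cadherin, differed by -0.13 with separate arms (adjusted p = 0.347). None of 9 connexins, the gap junction proteins, passed (limma; 0 higher and 1 lower at an unadjusted p below 0.05, GJA1 at -0.12).

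Among 24 polarity, scaffold and tricellular genes of the tight junction, 2 rose and 1 fell, against 2.48% of all genes called higher and 1.74% called lower. ARHGEF2 encodes GEF-H1, a RhoA activator that cingulin holds at the junction. It stood at 7.77, 7.66 and 7.79 with miR-130a and at 7.11, 7.11 and 7.17 in controls, a rise of 0.61 (SE 0.055), or 1.52-fold (adjusted p = 0.00213, limma). It passed in all 15 alternative settings. PARD6B, an adaptor of the apical polarity complex, rose by 0.48 (SE 0.092, adjusted p = 0.0309), and RAB13, a GTPase that brings proteins to the tight junction, fell by 0.30 (SE 0.049, adjusted p = 0.0172). Both missed the threshold without miR-130a 1, 2 or 3 or negative control 1 (adjusted p = 0.0675 to 0.129), and also after median centring (PARD6B 0.0813, RAB13 0.0566) and when all rows were tested (PARD6B 0.115, RAB13 0.103).

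Among 12 plakin, keratin and desmosome partner genes, PPL and KRT18 rose and none fell (limma; 5 higher and 1 lower at an unadjusted p below 0.05), against the same 2.48% and 1.74% of all genes. PPL encodes periplakin, a plakin related to desmoplakin. It stood at 8.46, 8.44 and 8.44 with miR-130a and at 8.10, 8.03 and 8.05 in controls, a rise of 0.39 (SE 0.047, adjusted p = 0.00572, limma). Its adjusted p was 0.0533 without miR-130a 1. KRT18, a keratin whose filaments desmoplakin anchors, rose by 0.39 (SE 0.064, adjusted p = 0.018). Without miR-130a 1, 2 or 3 or negative control 1 its difference was 0.37 to 0.41 and its adjusted p 0.0605 to 0.101, and when all rows were tested the adjusted p was 0.0887. Its partner KRT8 was 0.16 higher (adjusted p = 0.143), and KRT19, another keratin of simple epithelium, differed by -0.18 with separate arms (adjusted p = 0.141).

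Of 21 transcription and splicing factors known to act on epithelial junction genes, KLF5 rose, or 4.76%, and the other 20 did not pass. Of all genes, 2.48% were called higher and 1.74% lower. At an unadjusted p below 0.05 (limma), 5 of the 21 factors were higher and 0 lower. KLF5, a zinc finger factor of epithelial cells, stood at 9.87, 9.81 and 9.95 with miR-130a and at 9.30, 9.35 and 9.27 in controls. Its rise of 0.57 (SE 0.056, adjusted p = 0.00286, limma) passed in all 15 alternative settings. ESRP1, an epithelial splicing factor, was 0.23 higher (adjusted p = 0.0508). KLF4, TFAP2A and SP1 were 0.23, 0.15 and 0.12 higher and did not pass. Of the 21 differences, 15 were positive and 6 negative. The repressors of epithelial genes did not pass: SNAI2 differed by 0.10, ZEB1 by -0.12 and SNAI1 by -0.11, and ZEB2 was not analysed here.

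**Figure D4:**
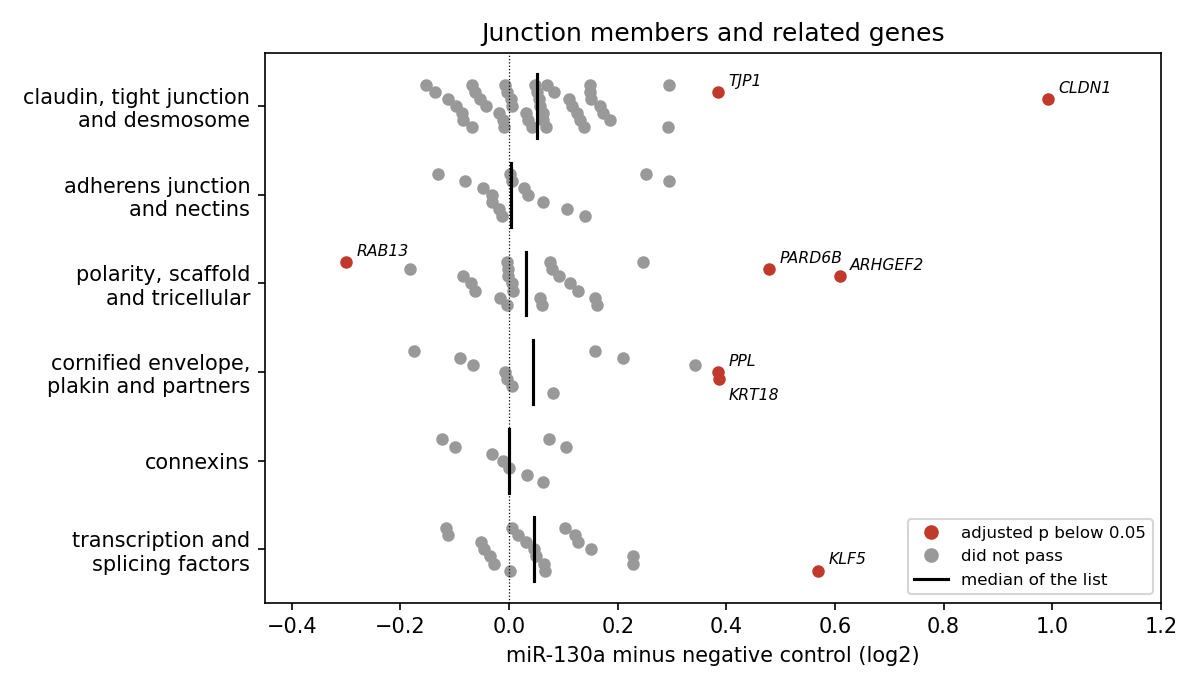
Difference between miR-130a and negative control cultures (log2, x axis) for the 45 junction members and for 5 related lists; each point is a gene, red where the adjusted p is below 0.05, and the black bar is the median of the list. CLDN1 at 0.99 lies farthest right, followed by ARHGEF2 at 0.61 and KLF5 at 0.57, and RAB13 at -0.30 is the point past the threshold on the left.

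SNAI and ZEB repressors bind the E-box CAGGTG, and Sp and KLF factors bind GC boxes such as GGGCGG, so the starts of the genes discussed were read for these letters on both strands. RefSeq windows from 250 bases before to 50 bases after a gene's start (GRCh38.p14) were found for 34 of the 45 members, 50 windows in all. An E-box was found in 34% of these windows and in 20.6% of all 35116 windows, and a GC box in 54% and 45%. These shares describe letters and not binding, and some genes contribute several windows. The 4 windows below, 5′ to 3′ on the gene's strand with both motifs in capitals, show the 2 genes that rose, the desmosome gene with the largest difference, and a claudin that did not follow CLDN1. CLDN1 lies at chr3:190322397-190322696 (minus strand), TJP1 at chr15:29969000-29969299 (minus strand, the farthest upstream of 4 windows), DSP at chr6:7541421-7541720 (plus strand) and CLDN3 at chr7:73770221-73770520 (minus strand).
CLDN1: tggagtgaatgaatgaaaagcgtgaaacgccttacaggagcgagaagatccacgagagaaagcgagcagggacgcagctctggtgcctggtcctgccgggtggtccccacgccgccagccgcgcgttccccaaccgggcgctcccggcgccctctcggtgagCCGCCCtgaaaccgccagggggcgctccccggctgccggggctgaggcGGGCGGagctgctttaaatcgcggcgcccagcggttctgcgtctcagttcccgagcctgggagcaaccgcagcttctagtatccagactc
TJP1: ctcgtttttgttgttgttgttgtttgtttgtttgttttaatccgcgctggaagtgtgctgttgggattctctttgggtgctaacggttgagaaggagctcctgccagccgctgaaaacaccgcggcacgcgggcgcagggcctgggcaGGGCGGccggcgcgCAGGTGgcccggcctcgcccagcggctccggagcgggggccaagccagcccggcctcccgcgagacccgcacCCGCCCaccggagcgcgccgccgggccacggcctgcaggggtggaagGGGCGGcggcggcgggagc
DSP: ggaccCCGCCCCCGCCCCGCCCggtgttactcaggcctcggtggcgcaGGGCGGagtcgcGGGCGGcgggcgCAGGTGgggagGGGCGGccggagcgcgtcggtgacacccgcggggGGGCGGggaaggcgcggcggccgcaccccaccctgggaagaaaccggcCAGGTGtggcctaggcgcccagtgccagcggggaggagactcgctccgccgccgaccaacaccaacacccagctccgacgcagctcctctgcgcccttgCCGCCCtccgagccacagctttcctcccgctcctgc
CLDN3: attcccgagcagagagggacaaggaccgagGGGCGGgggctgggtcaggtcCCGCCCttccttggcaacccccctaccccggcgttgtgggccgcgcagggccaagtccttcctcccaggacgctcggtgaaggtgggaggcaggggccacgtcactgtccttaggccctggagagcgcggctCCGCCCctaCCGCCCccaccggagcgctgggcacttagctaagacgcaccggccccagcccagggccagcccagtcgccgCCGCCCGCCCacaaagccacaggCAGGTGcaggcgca

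The CLDN1 window holds 2 GC boxes and no E-box of this form. The TJP1 window holds 1 E-box and 3 GC boxes, the DSP window 2 and 8, and the CLDN3 window 1 and 6, where GC boxes that overlap each other are counted separately. The TJP1 windows not printed hold no E-box and 0, 1 and 3 GC boxes. Whether any of these sites acts on the genes in these cells was not tested.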

How the data were processed

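Gene expression was measured in 6 PC3 cultures, 3 transfected with a miR-130a precursor and 3 with a negative control precursor. The deposited table holds 1 column of log2 values per array, which the authors made by RMA with Expression Console of Affymetrix (the submitters' processing notes name both); versions and the genome build are not given in the sources used here, and the log2 scale was inferred from the range of the values. Of 70753 rows, 67528 held values and 23781 of these carried 1 gene symbol in GEO's platform annotation. Symbols were updated by Entrez identifier from NCBI's gene table (GRCh38.p14), the row with the highest mean stood for a gene, and 22465 genes remained. Every member had a single row. Rows differ in their probes, so levels of different genes were set only against the median row, which is no measure of their relative abundance, and the number of arrays limits the precision.

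Linear models in limma 3.58.1 under R 4.3.3, with eBayes moderation, compared the arms over all 22465 genes, two-sided. Intervals are 95% intervals from limma's moderated SE. A dim row is one below 4.995, the median over all rows of the mean of the 6 arrays. Members and lists were chosen with earlier results of these data known. Values on every array are given for members past the threshold and, in each of the 6 role groups, for the 3 with the smallest p and the 2 with the highest mean, which are 19 members; other members, and genes named from related lists that did not pass, were picked with their values in view. The 15 alternative fits took the replicate number as a block (fixed, then random), kept brighter rows only, normalized by quantiles again, centred arrays on their medians, averaged the rows of a gene, weighted the arrays, used trended robust eBayes, tested all rows, or left out 1 of the 6 arrays. Deviations from the arm means correlated at -0.067, 0.059 and 0.089 between arrays of the same number, so the numbers were not taken as pairs. The test was checked on simulated data. Scanner files and detection calls were not used here. Some members overlap other annotated genes (CLDN1 and CLDN16, CLDN7 and ELP5, TJP3 and APBA3, DSP and DSP-AS1), and how far their probes read the overlapping gene was not tested.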

Additional observations from a re-analysis of the deposited data

How the results depend on the processing

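With 3 arrays per arm, calls near the threshold depend on single arrays. Of the 45 members, 2 rose and 0 fell. After median centring 1 rose, and 1 rose when all rows were tested. Brighter rows alone, a second quantile normalization and trended robust eBayes each gave 3 that rose (CLDN1, DSP and TJP1). Array weights gave 5 (CLDN1, CLDN12, DSP, PKP4 and TJP1), and 1 to 3 rose and 0 fell when 1 array was left out. The replicate block, fixed or random, left 2 members higher and 0 lower and changed no other call. The members' median change of 0.051 was 0.0695 with brighter rows alone, which keeps 31 members, 0.0686 after a second quantile normalization, 0.0719 after median centring, 0.0762 with array weights, and 0.0211 to 0.0868 with 1 array left out. Median centring raised the share of positive differences to 75.6% of the members, against 64.4%, and to 53.8% of all genes, against 43.2%.

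Adherens junction genes that rose, 0 in the reported fit, numbered 2 with brighter rows, 1 after quantile normalization, 2 with array weights, 2 with trend and robust eBayes, and 0 to 1 with an array left out. Polarity genes that rose, reported as 2, numbered 1 after median centring, 1 over all rows, 3 with array weights and 1 to 3 with an array left out. Those that fell, reported as 1, numbered 0 after median centring, 0 over all rows, 2 with array weights and 0 to 1 with an array left out. Desmosome partner genes that rose, reported as 2, numbered 1 over all rows and 0 to 3 with an array left out. They numbered 3 with brighter rows, after quantile normalization, with array weights and with trend and robust eBayes. With array weights 1 desmosome partner gene fell. Transcription and splicing factors that rose, reported as 1, numbered 2 with brighter rows, 4 with array weights, 2 with trend and robust eBayes, and 1 to 3 with an array left out. Connexins stayed at 0 in both directions in all settings run.

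Signs turned in 3 of the members described on every array, none of which had passed: JAM2 at 0.0272 with array weights and between -0.1 and 0.0158 with 1 array left out (positive without negative control 3), TJP3 between -0.00342 (without negative control 2) and 0.112, and DSC3 between -0.0287 (without negative control 3) and 0.109. With 1 array left out, signs also turned in CLDN2, CLDN4, CLDN5, CLDN9, CLDN15, CLDN16, CLDN19, CLDN20, CLDN22, CLDN23, CLDN34, DSC1 and DSG1. The causes of these shifts were not tested. Array weights gave negative control 3 a weight of 0.147, against 0.665 to 2.58 for the other arrays; they were estimated gene by gene, because the default estimate did not converge. Testing all rows adjusts over more features. Of the 45 members, 14 lay below the median row, and signal over background was not used here.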

Other observations

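A row that carries the symbols WWC2 and CLDN22 together was not counted among the members. It averaged 6.69 with miR-130a and 6.45 in controls, a difference of 0.24 that did not pass when all rows were tested (adjusted p = 0.359, limma), whereas the row of CLDN22 alone averaged 2.66 with miR-130a and 2.73 in controls. ACP3, the prostatic acid phosphatase of luminal cells, rose by 0.30 (SE 0.045, adjusted p = 0.0129, limma), with 5.00, 5.01 and 4.99 on the miR-130a arrays and 4.71, 4.69 and 4.70 on the control arrays, close to the median row of 4.995. The other measured luminal markers did not pass, KLK3 differing by 0.015, KLK2 by 0.024 and TMPRSS2 by 0.014.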
